A study of Caenorhabditis elegans with 48 samples.

Results

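HPL-2 and LIN-35 were compared by chromatin immunoprecipitation and sequencing (ChIP-seq) in the intestine of L1 larvae of C. elegans, with 3 HPL-2 libraries and 2 LIN-35 libraries of the 48 samples of the series, 23 of which have a peak list. Each protein carried GFP and FLAG at its carboxyl end, followed by its native 3′ UTR, and was expressed from the intestinal ges-1 promoter: strain YL416 for HPL-2 and strain YL398 for LIN-35. Each strain is 1 line, integrated after bombardment of unc-119(ed3) worms with a rescuing unc-119 gene, so a difference between the factors cannot be told apart from a difference between these lines. Starved L1 larvae were fed for 6 h at 20 °C, chromatin was taken from whole larvae, and anti-GFP precipitates were used, so the promoter alone limits the signal to intestine. The 5 lists held 22759 peaks in WS180 coordinates, each with a q-value from PeakSeq of up to 0.01 against input DNA. A site of HPL-2 was a region where peaks of at least 2 of the 3 replicates overlapped by 10 bp or more, and a site of LIN-35 one where both replicates did. The rule gave 2735 HPL-2 sites and 1951 LIN-35 sites, which were called shared where they overlapped by 10 bp or more, and HPL-2 only or LIN-35 only elsewhere.

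HPL-2 is a worm member of the HP1 family, chromodomain proteins that bind histone H3 methylated at lysine 9 and are known for compacting chromatin. LIN-35 is the only retinoblastoma-family pocket protein of C. elegans and represses genes together with the E2F factor EFL-1 and its partner DPL-1, within the DRM complex. Both proteins belong to the SynMuv B group of repressors, and the loss of either gene is known to affect larval growth at high temperature. The question put to these lists was at which places in intestinal chromatin both proteins had peaks, and at which places only 1 of them did.

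The following motif sites are examples of the DNA under shared sites and under sites of a single factor. E2F matches of HPL-2 only sites, and GATA and GA-rich matches of LIN-35 only sites, were also listed and are not printed. They were taken from the lists of motif matches that accompany the study, with the match in capitals and up to 4 flanking bases in lower case, read 5′ to 3′ on the strand given, and the span is the bound region that the study lists in WS180. The E2F lines are matches in broadly bound regions to the E2F motif of the somatic lists, and they are shown because E2F sites are where EFL-1 and DPL-1 are known to act.
cdc-48.1, shared, E2F, chrII:10563147-10563906, minus strand: ataaAGCAACCGCGCCCTAACGTCAgaat
fan-1, LIN-35 only, E2F, chrIV:6548526-6549135, plus strand: gcagAGACAACGCGCGTCTTTGAAAattg
F22E5.9, LIN-35 with no HPL-2 peak, E2F, chrII:2637993-2638602, minus strand: aataAGCAAACGCGCTCCACCGCACatca
rha-2, LIN-35 with no HPL-2 peak, E2F, chrIII:8614382-8614853, plus strand: ttaaTGCAAGTGCGCTCTATCGAAAttga
T24B8.3, shared, GATA, chrII:9060082-9062593, plus strand: ttatAACTGATAAGCtttg
Y105C5B.9, HPL-2 only, GATA, chrIV:15929806-15930295, plus strand: caccTACTGATAAGAtagt
hlh-30, shared, GA-rich, chrIV:4027271-4029658, minus strand: ctgtGAGAGAAAGAGATAGGGGCGGgcg
atf-6, HPL-2 only, GA-rich, chrX:12480331-12480776, minus strand: ggggGGCAGAGTCAGAGAAAAAGAGtccc
The GATA and GA-rich lines come from regions of the class that the study calls intestine-specific. The criteria stated for it exclude EFL-1 in intestine or soma and name no other exclusion. The atf-6 site had a peak in 13 of 23 libraries. GATA sites are the known binding sites of ELT-2, the main GATA factor of the worm intestine. Of the 130 listed E2F matches in broadly bound regions outside chromosome V, 47 lay in shared HPL-2 sites, 33 in LIN-35 only sites and 8 in HPL-2 only sites. Of the 70 GA-rich matches, 44 lay in shared sites, 13 in HPL-2 only sites and 8 in LIN-35 only sites. The 26 GATA matches were divided 16, 4 and 4 over the same classes. These counts were shaped by how the regions had been selected. The intestine-specific regions, which hold the GATA and GA-rich matches, had been required to carry both HPL-2 and LIN-35 in intestine and no EFL-1 in intestine or soma, so that most of them being shared here was built in. The broadly bound regions had been required to carry LIN-35 in soma, DPL-1 in intestine and EFL-1 in germline. The counts therefore describe that list and give no support to a difference in motifs between the classes.

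The lists differed in length within each factor. HPL-2 replicates 1, 2 and 3 held 6960, 1707 and 4684 peaks. LIN-35 replicates 1 and 2 held 7283 and 2125. Replicate 1 of each factor was the library that the study had sequenced more deeply than replicate 2, and the share of peaks on chromosome I was 4.28% in HPL-2 replicate 2 and 8.33% in LIN-35 replicate 2, 10.3% in HPL-2 replicate 3, and 18.8 and 19.2% in the replicates 1. The short EFL-1 lists of the same tissue held 19.3 and 19.7% there. The sample titles give 1 date to all HPL-2 libraries and LIN-35 replicate 1, and a later date to LIN-35 replicate 2. The absence of a peak below means that none was listed, not that the protein was absent. The lists stop at a q of 0.01. At the other end the 23 lists hold 0 peaks with a q of 0, the smallest listed being 8.3e-304, and whether peaks of still smaller q were left out before deposit was not tested. A missing peak at a site that is very strong in other libraries can therefore not be read as weak binding.

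HPL-2 replicate 3 stood apart along chromosome V. Its peaks outnumbered those of replicate 1 in 15 adjacent windows of 250 kb, from 11750001 to 15500000 on V, whereas the next such run on the genome was 3 windows long. These 3.75 Mb are 3.74% of the genome covered by the lists, and they held 682 peaks of HPL-2 replicate 3, or 14.6% of that list (Wilson 95% interval 13.6 to 15.6%). In replicate 1 they held 294 peaks (4.22%), in replicate 2 66 peaks (3.87%), and in the LIN-35 replicates 292 (4.01%) and 98 (4.61%). Of the 9 intestinal lists only that of HPL-2 replicate 3 was raised there, and 381 of its 682 peaks overlapped no peak of any other intestinal library. Of all 4684 peaks of that list, 54.2% overlapped a peak of HPL-2 replicate 1 and 55.6% one of LIN-35 replicate 1. Peaks without any overlap were not counted outside the run, so the 381 are not shown to be particular to it. The peak of smallest q in HPL-2 replicate 3, a 4430-bp region at chrIII:3563271-3567700 (q = 2.1e-135), overlapped a peak in 1 of the 23 libraries, its own. The shared portion of HPL-2 sites and their X and arm differences are given with and without these regions below. No input of HPL-2 replicate 3 is among the 48 samples of the series, and whether that bears on the run was not tested.

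**Figure D1:**
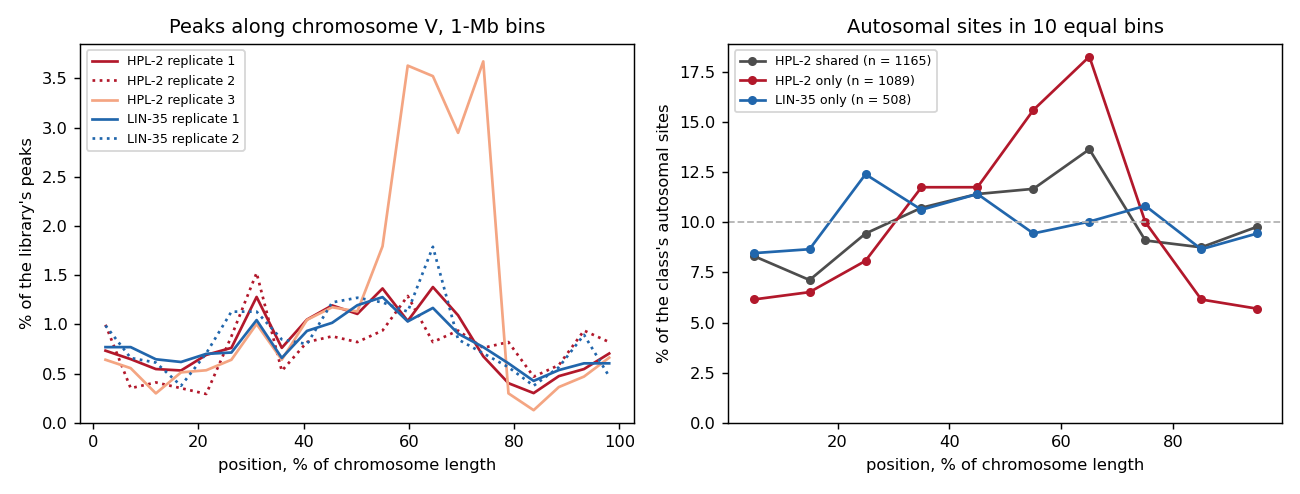
Left, the percentage of each library's peaks in 1-Mb bins of chromosome V, plotted against position as a percentage of chromosome length, for the 3 HPL-2 and 2 LIN-35 libraries. Right, the percentage of each class's autosomal sites in 10 equal bins of chromosome length, with a dashed line at an even spread. HPL-2 replicate 3 rises above the other libraries over 3.75 Mb of V, and HPL-2 only sites are most frequent in bins 6 and 7 (15.6 and 18.3%).

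The loci of the tagged genes, which the transgenes duplicate, were read first as a check of the labels. At lin-35, on chromosome I, neither LIN-35 library had a peak, and HPL-2 replicate 1 had 4, the smallest q being 4.2e-31. At hpl-2, on chromosome III, HPL-2 replicate 2 had 1 peak of 5184 bp (q = 8.3e-36), and HPL-2 replicates 1 and 3 and both LIN-35 libraries had none. At unc-119 HPL-2 replicate 2 had 2 peaks and the other 4 libraries none. The tagged loci thus gave no check of the labels, since peaks there were listed in some libraries of a strain and not in others, and whether peaks of a q of 0 were left out there was not tested. These loci were left out of the named sites.

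Peak width did not separate the factors beyond the spread between libraries. The median peak was 372, 259 and 285 bp wide in HPL-2 replicates 1, 2 and 3, and 440 and 353 bp wide in LIN-35 replicates 1 and 2, so that the ranges overlapped. The means were 305 ± 59.2 bp (SD, n = 3) for HPL-2 and 396.5 ± 61.5 bp (n = 2) for LIN-35 (difference -91.2 bp, exact two-sided permutation test over libraries, p = 0.4, adjusted p = 0.8 over 6 tests by Benjamini-Hochberg). The smallest p that 3 against 2 libraries allow is 0.2, so this comparison could not have passed 0.05. Peaks of 1500 bp or more made up 4.90% of HPL-2 replicate 1 and 5.29% of LIN-35 replicate 1, but 1.05, 1.2 and 1.27% of HPL-2 replicates 2 and 3 and LIN-35 replicate 2. Broad peaks were thus most frequent in replicate 1 of both factors, the longest list of each. HPL-2 replicate 3, with 4684 peaks, had a share close to those of the short lists. Whether list length bears on the share was not tested. The same share was 0.503 and 0.16% in the EFL-1 replicates and 0.847 and 0.213% in the DPL-1 replicates, so that all 5 HPL-2 and LIN-35 lists lay above all 4 of those, a comparison made after the values were seen and not tested.

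The HPL-2 libraries also varied in their place on the chromosomes. Of all peaks, 14.9, 23.0 and 16.9% lay on X in HPL-2 replicates 1, 2 and 3, against 14.2 and 15.7% in the LIN-35 replicates, and X takes 17.7% of the covered genome. HPL-2 averaged 18.3 ± 4.22% and LIN-35 14.9 ± 1.02% (exact permutation test, n = 3 and 2, p = 0.4, adjusted p = 0.8), and without HPL-2 replicate 2 the difference fell from 3.34 to 0.967 percentage points. The arms, taken as the outer 33.3% of each autosome at either end, held 58.7, 67.0 and 54.6% of autosomal HPL-2 peaks and 60.3 and 61.7% of LIN-35 peaks (difference in means -0.93 points, exact permutation p = 0.8, n = 3 and 2). The arm difference changed sign to 1.84 points without HPL-2 replicate 3.

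HPL-2 and LIN-35 together were set against EFL-1 and DPL-1, tagged with GFP and FLAG and driven by ges-1 in L1 larvae in the same way, in strains YL418 and YL448, with 2 libraries each. X held 8.60 and 4.32% of EFL-1 peaks and 14.9 and 12.2% of DPL-1 peaks. The mean was 16.9 ± 3.53% for HPL-2 and LIN-35 (n = 5) and 10.0 ± 4.59% for EFL-1 and DPL-1 (n = 4), a difference of 6.94 points (exact two-sided permutation test, p = 0.0317, adjusted p = 0.19), which did not pass after adjustment. The smallest p that 5 against 4 libraries allow is 0.0159, so this test alone could not have passed after adjustment over 6 tests. The unadjusted p of the same test was at that limit with q below 0.001 (8.57 points). It was there too with the same number of peaks per library (9.45 points). The share on X was higher in HPL-2 and LIN-35 in all leave-one-out settings, by 5.04 to 8.58 points (exact permutation p 0.0286 to 0.0714). In the full lists the ranges of the 2 pairs of factors overlapped. The EFL-1 lists had the lowest shares, while DPL-1 replicate 1 (14.9%) lay between the LIN-35 replicates (14.2 and 15.7%). Libraries of 1 factor came from 1 strain and are not independent of each other. The p-values therefore measure the spread between libraries and not that between factors. Median width (342 and 330.5 bp, n = 5 and 4, exact permutation p = 0.794) and arm share (60.5 and 61.3%, exact permutation p = 0.714) differed by less than the spread.

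**Figure D2:**
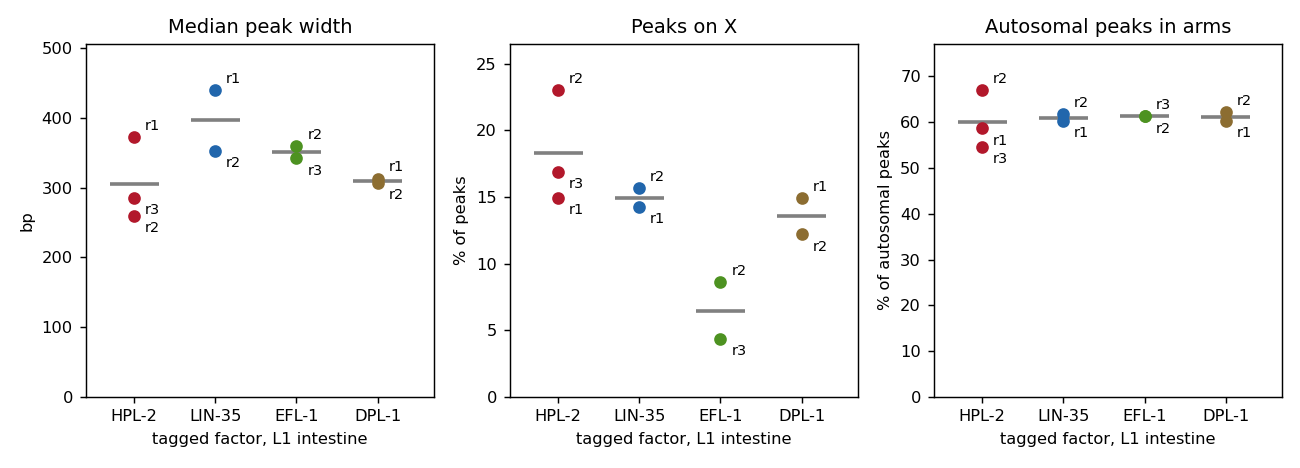
Median peak width (bp), percentage of peaks on X and percentage of autosomal peaks in arms for each intestinal library, with points for replicates (r) and bars for the factor's mean. HPL-2 replicates spread from 14.9 to 23.0% on X and from 54.6 to 67.0% in arms, and EFL-1 has the lowest X shares, 4.32 and 8.60%.

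When equal numbers of peaks were compared, HPL-2 libraries overlapped each other about as often as they overlapped LIN-35. The 1249 peaks of smallest q were taken from each of the 9 intestinal libraries. Between HPL-2 replicates 31.6 to 50.2% of peaks overlapped (median 42%, 6 comparisons), and 34.8 to 59.5% of HPL-2 peaks overlapped LIN-35 peaks (median 44.4%). LIN-35 replicates overlapped by 66.1 and 69.1%, and LIN-35 peaks overlapped HPL-2 peaks at 31.3 to 57.9% (median 40.8%). HPL-2 replicate 1 shared 44.8 and 40.2% of its peaks with the other HPL-2 replicates, but 59.5 and 53.3% with LIN-35 replicates 1 and 2. The other HPL-2 libraries differed from it, since the highest share of replicate 2 (50.2%) and of replicate 3 (43.8%) was with HPL-2 replicate 1. LIN-35 in turn overlapped EFL-1 and DPL-1 at 53.8 to 79.3% (median 66.7%), whereas HPL-2 did so at 22.3 to 49.3% (median 32.5%), below every LIN-35 value. These shares are descriptive, since the comparisons share libraries.

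**Figure D3:**
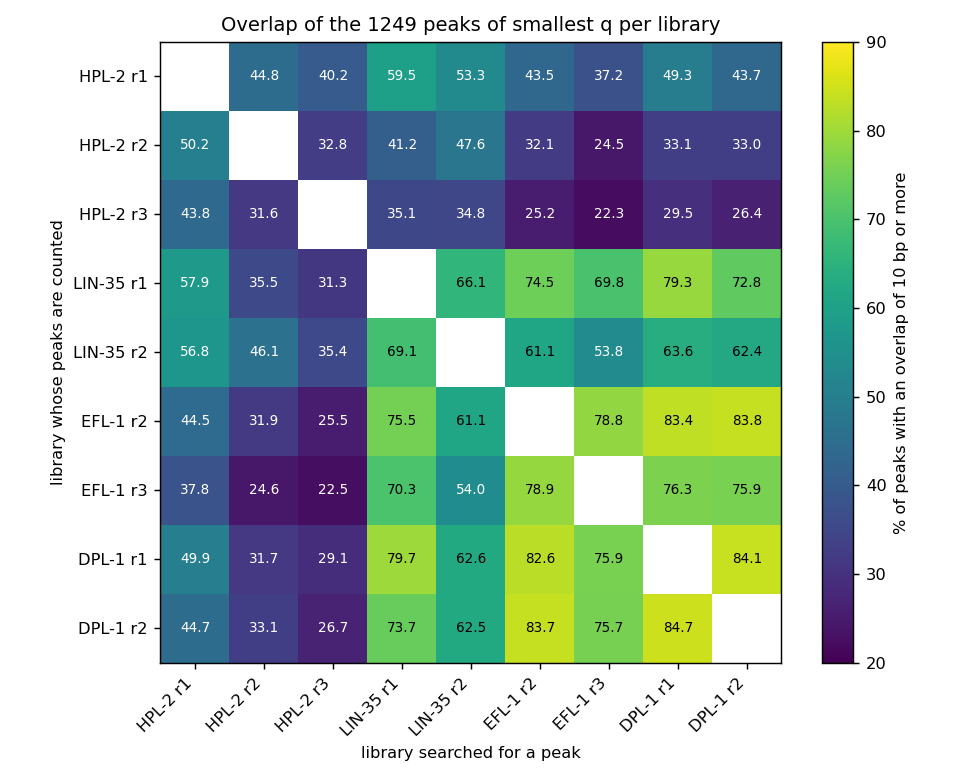
Percentage of the 1249 peaks of smallest q in the library of each row that overlap by 10 bp or more one of the 1249 of the library in each column (r, replicate). EFL-1 and DPL-1 overlap each other at 75.7 to 84.7%, LIN-35 overlaps them at 53.8 to 79.3%, and HPL-2 at 22.3 to 49.3%.

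Of the 2735 HPL-2 sites, 1395 (51.0%) were shared and 1340 were HPL-2 only, and of the 1951 LIN-35 sites, 1359 (69.7%) were shared and 592 were LIN-35 only. The union was 3327 sites. Most sites of a single factor still lay under a peak of the other factor's replicate 1. Of the HPL-2 only sites, 1090 (81.3%) overlapped a peak of LIN-35 replicate 1 alone, 21 a peak of replicate 2 alone, and 229 (17.1%) no LIN-35 peak. Of the LIN-35 only sites, 445 (75.2%) overlapped a peak of HPL-2 replicate 1, against 10 with replicate 2 and 48 with replicate 3, and 98 (16.6%) overlapped no HPL-2 peak. Without LIN-35 replicate 2, 90.9% of HPL-2 sites were shared and 34.4% of LIN-35 sites, so the split of HPL-2 sites rests on that shorter list.

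The shared portion varied with the replicates behind an HPL-2 site. Replicates 1 and 3 made 1486 of the sites (54.3%), all 3 made 844 (30.9%), replicates 1 and 2 made 345, and replicates 2 and 3 made 60. The shared portion was 79.4% of sites found in all 3, 53.0% of those of replicates 1 and 2, 35.1% of those of replicates 1 and 3, and 33.3% of those of replicates 2 and 3. Without HPL-2 replicate 3, 71.8% of HPL-2 sites and 43.5% of LIN-35 sites were shared, and without replicate 1 the values were 77.2 and 34.5%. Without the chromosome V run, 52.0% of HPL-2 sites were shared, close to the value with it.

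Where both factors had a site, the regions lay on top of each other. Among 1296 one-to-one pairs, which were 92.2% of the 1405 overlapping pairs, the midpoints were 37 bp apart at the median (interquartile range 15 to 98.1 bp), and 981 (75.7%) lay within 100 bp. The LIN-35 region was the wider at 916 of them (70.7%), with a median difference HPL-2 minus LIN-35 of -76 bp. Over shared sites with both peaks, the rank of −log10 q in HPL-2 replicate 1 followed that in LIN-35 replicate 1 with a Spearman rho of 0.53 (1375 sites), against 0.44 and 0.47 with HPL-2 replicates 2 and 3. Over shared LIN-35 sites, LIN-35 replicate 1 followed DPL-1 replicate 1 with a rho of 0.80 (1294 sites) and LIN-35 replicate 2 with 0.70 (1359 sites). Over shared HPL-2 sites, HPL-2 replicate 1 followed DPL-1 replicate 1 with 0.29 (1299 sites). The sites within a pair of libraries share their depth and input, so these values are descriptions.

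Shared sites were wider than sites of a single factor in both factors. Shared HPL-2 sites had a median of 553 bp and HPL-2 only sites 468.5 bp, and sites of 1500 bp or more made up 14.8% of the former (206, Wilson 95% interval 13 to 16.7%) and 7.24% of the latter (97, 5.97 to 8.75%). Shared LIN-35 sites had a median of 673 bp and LIN-35 only sites 509.5 bp, with 16.4% and 2.53% (15 sites, 1.54 to 4.14%) at 1500 bp or more. None of the 98 LIN-35 sites without an HPL-2 peak was that wide, which allows a share of up to 3.77%. The difference of 84.5 bp for HPL-2 was 49 bp without HPL-2 replicate 1 and 148 bp without replicate 3, and -12 bp at q below 1e-05, and that of 163.5 bp for LIN-35 was 58 bp without LIN-35 replicate 1. The order was the same inside each library. Peaks in shared and single sites had medians of 535 and 431 bp in HPL-2 replicate 1, 301 and 235 bp in replicate 2, 361 and 315 bp in replicate 3, 668 and 507.5 bp in LIN-35 replicate 1, and 374 and 318 bp in replicate 2. Width moved with the strength of the peak, whose median −log10 q was 16.4 at shared and 6.25 at HPL-2 only sites in HPL-2 replicate 1, and 42.6 and 27.1 at shared and LIN-35 only sites in LIN-35 replicate 1.

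Within ranges of −log10 q the width order kept for LIN-35 and turned for HPL-2. For LIN-35 sites at 40 or more the medians were 776 bp for 706 shared and 545.5 bp for 252 LIN-35 only sites, and shared sites were the wider in each of the lower ranges too. For HPL-2 sites from 20 to 40 the medians were 723.5 bp for 346 shared and 1085.5 bp for 88 HPL-2 only sites, and at 40 or more 2097 bp for 210 shared and 2878 bp for 29 HPL-2 only sites. At equal q in replicate 1, then, the HPL-2 only sites were as wide as shared ones or wider, except from 5 to 10, where the medians were 455 and 453 bp.

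**Figure D4:**
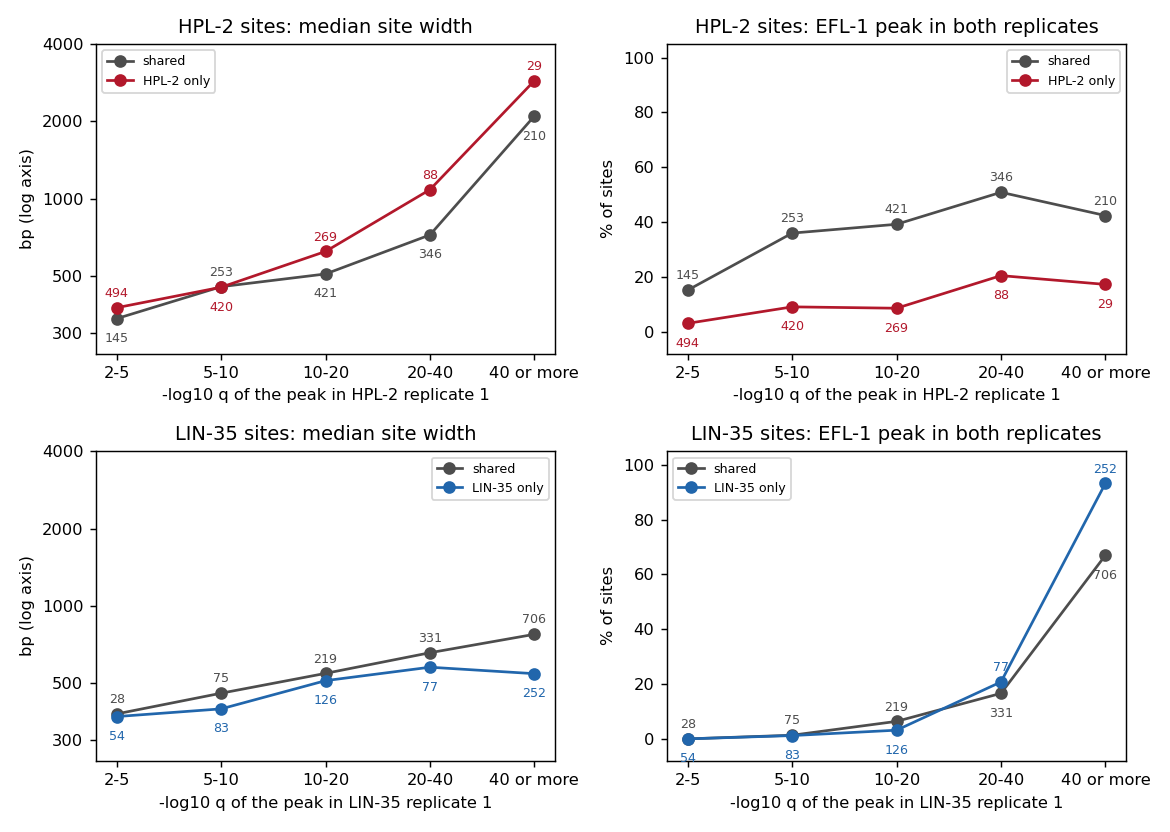
Median site width (bp, log axis) and percentage of sites with an EFL-1 peak in both replicates, by range of −log10 q of the peak in replicate 1, for shared sites and sites of 1 factor only. Numbers beside the points count sites. The EFL-1 share of HPL-2 only sites stays at 20.5% or less in every range, and that of LIN-35 only sites reaches 93.3% in the highest.

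The widest HPL-2 site was shared. This 10481-bp region at chrII:14598168-14608648, next to no listed gene, had q of 7.8e-107 in HPL-2 replicate 1 and 2.4e-48 in LIN-35 replicate 1. An 8311-bp site at ZK470.2 (chrX:4140681-4148991) had 1.5e-156 and 3.6e-38. At pnp-1, the gene of purine nucleoside phosphorylase, HPL-2 covered 5413 bp (chrIV:291746-297158) and LIN-35 5401 bp. There q was 9.0e-153, 5.5e-10 and 1.8e-08 in the HPL-2 replicates and 1.5e-280 and 1.6e-17 in the LIN-35 replicates, and neither EFL-1 library had a peak. This gene is named because the study shows it as an example. Among HPL-2 only sites the widest outside V that had a listed gene was 6549 bp at the nuclear hormone receptor gene nhr-21 (chrII:7341654-7348202), where LIN-35 replicate 1 had a peak (q = 7.9e-57) and replicate 2 none.

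Along the autosomes the classes differed in the share in arms. Autosomal arms held 59.6% of shared HPL-2 sites (56.7 to 62.4%, Wilson 95% interval over sites), 53.4% of HPL-2 only sites (50.5 to 56.4%) and 65.2% of LIN-35 only sites (60.9 to 69.2%). The HPL-2 only sites were most frequent in bins 6 and 7 of 10 equal bins along the autosomes, at 15.6 and 18.3%, and without chromosome V these values were 14.6 and 14.4%. LIN-35 only sites were spread evenly, with 8.46 to 12.4% in each bin. The arm difference between shared and HPL-2 only sites was 6.13 points with the V run and 6.31 points without it, but it turned to -2.0 points for HPL-2 sites present in all 3 replicates and to -5.14 points without HPL-2 replicate 1. The arm difference between shared and LIN-35 only sites was -5.33 points and turned to 0.372 points without HPL-2 replicate 1 and to 5.55 points without replicate 3, and it was -10.1 points without replicate 2.

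X held 16.5% of shared HPL-2 sites (14.6 to 18.5%), 18.7% of HPL-2 only sites (16.7 to 20.9%) and 14.2% of LIN-35 only sites (11.6 to 17.2%), intervals that overlap each other, beside 17.7% of the covered genome. Single lists moved these differences. Shared minus HPL-2 only was -2.24 points, against -14.1 without HPL-2 replicate 1, -13.5 without replicate 3 and -5.30 without LIN-35 replicate 2, and shared minus LIN-35 only was 2.29 points, against -1.62 without HPL-2 replicate 2 and 6.49 without replicate 3. Among LIN-35 sites the X share was lowest at the strongest sites. It was 35.7 and 38.9% for shared and LIN-35 only sites at −log10 q from 2 to 5 and 6.80 and 2.78% at 40 or more. HPL-2 shared sites had 14.5 to 20% on X in every range, and HPL-2 only sites had 19 to 20% in the 3 ranges under 20, 9.09% from 20 to 40 (88 sites) and 3.45% at 40 or more (29 sites). The X share of single-factor sites was thus lowest at the strongest sites for both factors. Chromosome I held 7.89% of shared HPL-2 sites, 16.2% of HPL-2 only sites and 10.3% of LIN-35 only sites, beside the low share of chromosome I in the lists of HPL-2 replicate 2 and LIN-35 replicate 2, whose part in it was not tested.

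EFL-1 and DPL-1, whose peaks were not used to define the classes, were found more often at shared and at LIN-35 only sites than at HPL-2 only sites. An EFL-1 peak in both intestinal replicates lay at 545 shared HPL-2 sites (39.1%, Wilson 95% interval 36.5 to 41.7%), 256 LIN-35 only sites (43.2%, 39.3 to 47.3%) and 102 HPL-2 only sites (7.61%, 6.31 to 9.16%), beside 27.1% of all 3327 sites. DPL-1 in both replicates lay at 70.8%, 57.1% and 31.0% of the same classes, beside 52.3% of all sites. At HPL-2 sites without any LIN-35 peak, EFL-1 was at 0 of 229, which allows a share of up to 1.65%, and DPL-1 at 13 (5.68%). At LIN-35 sites without any HPL-2 peak, EFL-1 was at 23 of 98 (23.5%) and DPL-1 at 28 (28.6%). Both shares were below those of shared sites, and that of DPL-1 was also below the 31.0% of HPL-2 only sites. The excess of EFL-1 at LIN-35 only over HPL-2 only sites, 35.6 points, was 6.89 points without LIN-35 replicate 2 and 30.7 points or more without any other of the 5 libraries.

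The order of the classes was similar across tissues. In each of the other 18 libraries of the series, from intestine, from larvae expressing the factors under their own promoters, and from adult germline, a peak was more frequent at shared HPL-2 sites than at HPL-2 only sites (18 of 18) and more frequent at LIN-35 only than at HPL-2 only sites (18 of 18). Shared LIN-35 sites exceeded LIN-35 only sites in 16 of 18. Among sites with no peak of the other factor at all, LIN-35 sites had the higher share in 15 of 18, and the order turned in both germline mex-5 LIN-35 libraries and in somatic LIN-35 replicate 2 (32.7% of 98 LIN-35 sites and 36.7% of 229 HPL-2 sites). Somatic LIN-35 replicate 2, expressed from the lin-35 promoter, had a peak at 81.6% of shared, 62.5% of LIN-35 only and 57.5% of HPL-2 only sites. Germline LIN-35 under pie-1, replicate 3, had 22.3, 14.7 and 4.33%. These libraries share sites and are not independent counts of the order.

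**Figure D5:**
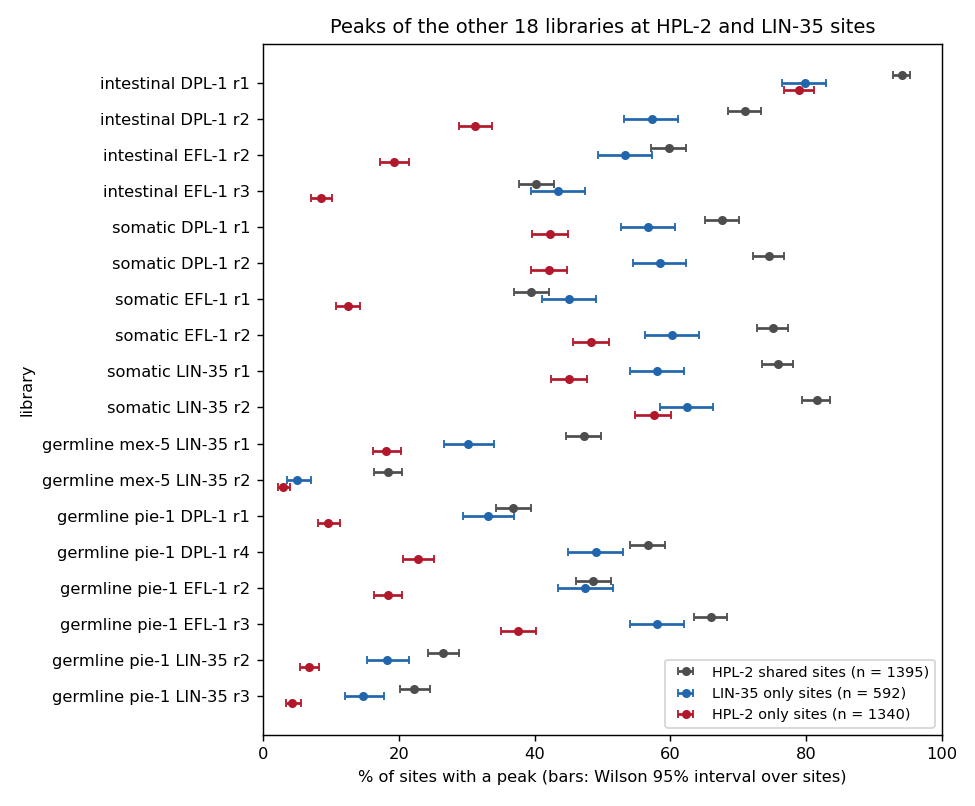
Percentage of shared HPL-2, LIN-35 only and HPL-2 only sites with a peak in each of the other 18 libraries (r, replicate), with Wilson 95% intervals over sites. HPL-2 only sites have the lowest share in 18 of 18 libraries, 79.0% for intestinal DPL-1 replicate 1 and 8.51% for intestinal EFL-1 replicate 3.

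The difference in EFL-1 was present for HPL-2 sites within ranges of q in HPL-2 replicate 1. The strength of LIN-35 peaks was not matched between these classes. In HPL-2 replicate 1, sites of −log10 q from 5 to 10 had EFL-1 in both replicates at 36.0% of 253 shared and 9.05% of 420 HPL-2 only sites, and sites from 20 to 40 at 50.9% of 346 and 20.5% of 88. For LIN-35 sites the EFL-1 share rose with the strength of the LIN-35 replicate 1 peak in both classes. At −log10 q of 40 or more in LIN-35 replicate 1, EFL-1 was at 67.0% of 706 shared sites and at 93.3% of 252 LIN-35 only sites, while under 10 it was at 1.33% or less of either class. The strongest LIN-35 sites without an HPL-2 site were thus nearly all EFL-1 sites.

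Genes were placed next to a site when a transcript start listed with the study lay in the site or within 500 bp of it, which could be done outside chromosome V for 3036 genes. The list holds genes of somatic EFL-1, DPL-1 and LIN-35 sites and of the study's tissue classes. Its intestine-specific class had been required to carry both HPL-2 and LIN-35, so genes next to shared sites entered it more readily than genes next to sites of a single factor, and the counts describe the list only. Of all 3036, 940 (31.0%) lay next to shared HPL-2 sites, 428 (14.1%) next to HPL-2 only sites and 328 (10.8%) next to LIN-35 only sites, and a gene with several sites counts in several classes. Gene lists are given beside these shares and without a test, and the selection above bears on each of them.

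Genes of cell division had a higher share next to LIN-35 only sites than listed genes as a whole. Of 28 listed mitosis genes, 8 (28.6%) were next to LIN-35 only sites, beside 10.8% of all listed genes, and 2 (7.14%) next to HPL-2 only sites, beside 14.1%. The 9 (32.1%) next to shared sites were near the background of 31.0%. Next to LIN-35 sites without any HPL-2 peak lay 0 of these genes, beside 28 of all 3036 listed genes. The LIN-35 only members included cdk-1, the mitotic kinase, plk-1, the polo kinase, hcp-3, the centromeric histone H3, lin-5, which orients the spindle, and the condensin gene mix-1. At cdk-1 (chrIII:9746736-9747504) q was 3.3e-86 and 6.2e-05 in the LIN-35 replicates and 2.1e-07 in HPL-2 replicate 1, with no peak in HPL-2 replicates 2 and 3. Of 22 DNA replication genes, 10 (45.5%) were next to shared and 4 (18.2%) next to LIN-35 only sites. The licensing factor gene cdc-6 (1 gene, 4.55%) was next to an HPL-2 only site. All listed genes had 31.0, 10.8 and 14.1% in these classes.

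Sites are ranked here and below by the largest q among the replicates that define them, the smallest value first. The first shared replication site in this rank lay at pcn-1, which encodes the sliding clamp PCNA (chrIV:4049492-4049934, 443 bp). The HPL-2 replicates gave q of 6.4e-40, 3.0e-06 and 2.5e-07 there, the LIN-35 replicates 2.0e-156 and 1.5e-33, and a peak was present in 23 of 23 libraries. Orc-1 (origin recognition), psf-1 and psf-3 (the GINS complex) and pri-1 (primase) were LIN-35 only. At psf-1 (chrII:9968016-9968667) no HPL-2 replicate had a peak, while LIN-35 gave q of 1.2e-55 and 7.1e-03 and both EFL-1 replicates had one.

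The LIN-35 only sites that came first in the same rank had strong EFL-1 and DPL-1 peaks. At umps-1, which encodes a pyrimidine synthesis enzyme (chrIII:10357636-10358190, 555 bp), q was 2.0e-116 and 2.3e-37 in the LIN-35 replicates, 3.2e-113 and 5.7e-75 in the EFL-1 replicates, and 8.4e-18 in HPL-2 replicate 1, with no peak in the other HPL-2 replicates. At fan-1, a nuclease gene of DNA crosslink repair whose motif site is printed above (chrIV:6548498-6549040), q was 1.8e-151 and 3.1e-23 for LIN-35 and 1.1e-13 for HPL-2 replicate 1 alone. These sites had an HPL-2 peak in the longest HPL-2 list alone. At F22E5.9 (chrII:2638053-2638527) and at the helicase gene rha-2 (chrIII:8614345-8614868), also printed above, no HPL-2 library had a peak, and LIN-35 gave q of 1.5e-82 and 4.6e-08 at the first and 1.2e-108 and 5.4e-05 at the second.

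Genes of chromatin and of the SynMuv group lay mostly at shared sites, 16 of 23 (69.6%), with 4 (17.4%) next to HPL-2 only and 2 (8.70%) next to LIN-35 only sites. All listed genes had 31.0, 14.1 and 10.8%, so the counts at sites of a single factor were near the background. The shared members included lin-9 and lin-54, whose products are subunits of the DRM complex with LIN-35, the polycomb-group genes mes-2 and mes-6, and lin-13, a SynMuv B gene. At lin-9 (chrIII:8904000-8904381) HPL-2 gave q of 1.4e-26, 4.0e-10 and 2.4e-07 and LIN-35 4.9e-90 and 2.6e-26. The HPL-2 only members were cec-1, a chromodomain gene, lin-52, another DRM subunit gene, sir-2.1, a sirtuin gene, and zfp-1, which had sites of both classes. At cec-1 (chrIII:8426252-8426578) HPL-2 replicates 1 and 3 had peaks near the limit of the lists (q = 1.3e-03 and 1.0e-03), and 2 of 23 libraries had any peak.

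The fatty acid and peroxisome genes had the highest share next to HPL-2 only sites of the 10 lists. Of 18 fatty acid and peroxisome genes, 6 (33.3%) were next to shared sites, 8 (44.4%) next to HPL-2 only sites and 1 (5.56%), the acetyl-CoA carboxylase gene pod-2, next to a LIN-35 only site, beside 31.0, 14.1 and 10.8% of all listed genes. The HPL-2 only members included the carnitine palmitoyltransferase gene cpt-1, the fatty acid desaturase gene fat-3, the elongase gene elo-2, the acyl-CoA dehydrogenase gene acdh-9 and the ceramide synthase gene hyl-2. At acdh-9 (chrII:848513-848932) HPL-2 gave q of 9.1e-12, 1.3e-03 and 1.4e-03 and LIN-35 replicate 1 gave 1.6e-10, with no peak in LIN-35 replicate 2. This HPL-2 only site was thus also in the longer LIN-35 list. Next to HPL-2 sites without any LIN-35 peak lay 0 of the 18 genes, beside 13 of all 3036 listed genes.

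Of 14 intestinal and stress transcription factor genes, 9 (64.3%) were next to shared and 3 (21.4%) next to HPL-2 only sites, beside 31.0 and 14.1% of all listed genes. Next to LIN-35 only sites lay 0 of them, beside 10.8% of all listed genes, so that a count of 0 in so short a list is near the background. At skn-1, which encodes a factor of endoderm fate and oxidative stress (chrIV:5655759-5657805, 2047 bp), the HPL-2 replicates gave q of 1.6e-51, 8.6e-05 and 2.8e-08 and LIN-35 3.6e-117 and 1.6e-10. The nuclear hormone receptor genes were similar, 5, 3 and 0 of 9 (55.6, 33.3 and 0%). Among 12 genes of the endoplasmic reticulum and its stress response, 4 were shared, including the BiP chaperone gene hsp-3, 3 LIN-35 only and 2 HPL-2 only, the stress sensor genes atf-6 and ire-1. These were 33.3, 25 and 16.7%, beside 31.0, 10.8 and 14.1% of all listed genes. At atf-6 (chrX:12480357-12481068), whose GA-rich match is printed above, q was 7.6e-24, 8.8e-07 and 7.5e-06 for HPL-2 and 3.9e-16 for LIN-35 replicate 1 alone. Of 11 sugar metabolism genes 3 (27.3%) were next to shared sites, near the 31.0% of all listed genes, and 0 next to sites of a single factor. The 3 included the glyceraldehyde-3-phosphate dehydrogenase genes gpd-2 and gpd-3.

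Transfer RNA genes were next to HPL-2 sites at higher shares than listed genes as a whole. Of 122 listed tRNA genes, 64 (52.5%) were next to shared, 33 (27%) next to HPL-2 only and 9 (7.38%) next to LIN-35 only sites, beside 31.0, 14.1 and 10.8% of all listed genes. Next to HPL-2 sites without any LIN-35 peak lay 0 of the 122, beside 13 of all 3036 listed genes. Of 33 microRNA genes, 13 (39.4%) were next to shared, 4 (12.1%) next to LIN-35 only and 1 (3.03%), mir-239a, next to HPL-2 only sites. Ranked by the largest q of its HPL-2 replicates, the first shared site with a listed gene outside V lay at tRNA:C18A11.t1 (chrX:8035897-8037022). There q was 4.7e-100, 1.5e-25 and 4.7e-44 for HPL-2 and 5.6e-106 and 5.6e-16 for LIN-35. At mir-52 (chrIV:14032202-14034803, 2602 bp) it was 2.6e-105, 2.2e-25 and 3.2e-38 for HPL-2 and 1.0e-137 and 2.1e-26 for LIN-35. Both sites had a peak in 19 of 23 libraries, so they are not particular to these factors. At mir-71, a microRNA known for its part in lifespan (chrI:9378366-9384405), a tract of 6040 bp had q of 2.1e-167, 9.1e-08 and 5.6e-19 for HPL-2 and 7.7e-212 and 3.6e-09 for LIN-35.

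A few HPL-2 only sites of very small q lacked a peak in 1 LIN-35 list and not in the other. At chrX:1503294-1505272 HPL-2 gave q of 2.6e-291, 1.6e-55 and 2.8e-21 and LIN-35 replicate 2 gave 2.1e-36, LIN-35 replicate 1 had no peak, and 16 of 23 libraries had one. At pro-1 (chrII:10541862-10547913, 6052 bp), neither HPL-2 replicate 1 nor LIN-35 replicate 1 had a peak, while q was 6.9e-10 and 3.8e-54 in HPL-2 replicates 2 and 3 and 3.1e-21 in LIN-35 replicate 2. The reverse held at zfp-1 (chrIII:8797055-8798023), with q of 1.8e-13 and 9.5e-20 in HPL-2 replicates 1 and 3 and 4.4e-20 in LIN-35 replicate 1, and none in LIN-35 replicate 2. At none of these 3 sites was LIN-35 without a peak in both replicates. The HPL-2 only call at chrX:1503294-1505272 and at pro-1 rests on the missing peak of LIN-35 replicate 1, and whether a peak with a q of 0 was left out of that list was not tested.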

How the data were processed

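Peak lists of 23 ChIP libraries were used, 5 of them the intestinal HPL-2 and LIN-35 libraries. The authors called peaks per library with PeakSeq against input and deposited for each peak its WS180 coordinates and a q-value, with a limit of 0.01. No source used here names the aligner. The lists hold no read counts, and the read totals in the study's supplement, which cover 4 of the 5 libraries, were not used, so no interval for reads is given. HPL-2 replicate 3 is not described in the study's list of sequenced libraries. No input of it is among the 48 samples, so which input its peaks were called against is not known here.

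Peaks were joined and compared in Python 3.11.15 with numpy 2.4.6. Overlaps equalled those of bedtools 2.31.1 in 10 of 10 pairs of lists, and 3 of 3 simulated classes were recovered. Libraries were compared by exact two-sided permutation tests (scipy 1.17.1), 6 tests adjusted by Benjamini-Hochberg. Nothing says that replicates came from separate cultures beyond the study's term of biological replicates, so p-values measure the spread between these libraries. Over sites, counts, medians and Wilson 95% intervals, which cover counting over sites only, are given with no test. Chromosome length was the largest peak end over the 23 lists.

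Gene names came from transcripts listed with the study (3749), and 1915 of 1954 sequence names matched the WBcel235 table. On chromosome V these starts were offset from the peaks by 170 bp at the median, against -0.25 to 1.5 bp elsewhere, and V was left out of gene counts. Named sites were those of smallest q or greatest width in a class and members of fixed lists in order of q, outside V and the transgene loci. The q that ranked a site was the largest among the replicates that define it. A site lower in the rank can therefore have a smaller q in 1 replicate. The members and lists were chosen with earlier results of these data known. Exceptions named after their values were seen are chrX:1503294-1505272, hcp-3, plk-1, fat-3, elo-2, mes-2, mes-6 and lin-13, the strongest peak of HPL-2 replicate 3, and the motif sites printed. Alternatives were stricter q limits, equal list lengths, other overlaps, other class and arm definitions, the replicate block and leaving out each library. Leaving out the chromosome V run or chromosome I and splitting by q were chosen after seeing the data. Promoter motifs were not analysed here.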

Additional observations from a re-analysis of the deposited data

How the results depend on the processing

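Only peak lists were analysed here, so a protein's signal outside them is not seen. The width difference between shared and LIN-35 only sites and the EFL-1 differences of HPL-2 shared and of LIN-35 only over HPL-2 only sites kept their direction in all 14 alternatives. All differences below are shared minus single-factor sites, in bp for width and percentage points for shares, unless stated.

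With q below 0.001, 48.5% of HPL-2 and 58.9% of LIN-35 sites were shared, and the EFL-1 differences were 37.3 (HPL-2), -9.18 (LIN-35) and 47.0 (LIN-35 only minus HPL-2 only). With q below 1e-05 the shared portions were 48.3 and 45.2%, the HPL-2 width, X and arm differences -12, 1.09 and 13.4, the LIN-35 width and X differences 296.5 and 12.2, and the EFL-1 differences 38.7, -20.1 and 59.9. With the same number of peaks per library the portions were 58.3 and 56.4%, the HPL-2 X difference -11.5, the LIN-35 width, X and arm differences 250.5, 9.60 and 0.645, and the EFL-1 differences 40.7, -26.1 and 67.7. With HPL-2 in all 3 replicates the portions were 79.4 and 34.3%, the HPL-2 X and arm differences -15 and -2.0, the LIN-35 arm difference 0.478, and the EFL-1 differences 35.8 and 2.64. With single-factor sites limited to those with no peak of the other factor, the HPL-2 width and X differences were 164 and -6.66, the LIN-35 ones 247 and -3.93, and the EFL-1 differences 39.1, 16.5 and 23.5. With arms as the outer 25% the HPL-2 arm difference was 10.5, and without chromosome I 53.4% of HPL-2 sites were shared. The causes were not tested.

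Leaving out 1 library gave 50.5 to 90.9% of HPL-2 and 34.4 to 69.5% of LIN-35 sites shared, HPL-2 differences of 49 to 148 (width), -14.1 to -1.50 (X) and -5.14 to 7.72 (arm), LIN-35 differences of 58 to 214, -1.62 to 6.49 and -10.1 to 5.55, and EFL-1 differences of 23.4 to 34.7, -3.07 to 16.3 and 6.89 to 37.1. For HPL-2 minus LIN-35 libraries the ranges were -135 to -47.7 bp, 0.967 to 5.01 and -4.40 to 1.84 points, and for HPL-2 and LIN-35 minus EFL-1 and DPL-1 they were -13.2 to 32 bp, 5.04 to 8.58 and -2.45 to 0.676 points. With the replicate block (replicates 1 and 2 of each factor), HPL-2 minus LIN-35 was -81 bp (-94 and -68 in the 2 pairs), 4.03 points on X (0.718 and 7.35) and 1.84 points in arms (-1.65 and 5.33). The numbers are not shown to pair the libraries, no exact paired test of 2 pairs can pass 0.05 and none was run, and HPL-2 replicate 3 has no partner. No adjusted p passed 0.05 under any alternative, and no single test with these numbers of libraries could have done so alone.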
